A study of Mus musculus with 9 samples.

Results

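Foxa1, Foxa2, Foxa3, Cebpa, Cebpb, Onecut1, Onecut2 and Prox1 encode transcription factors that set and keep the hepatocyte programme. They were taken by gene name from a table of liver expression values and are 8 of its 54532 genes. All 8 passed the filter on low values, at least 0.5 FPKM (fragments per kilobase of gene, scaled to sequencing depth) in at least 3 of 9 libraries, as did 13737 genes in all. The libraries came from livers of wild-type male C57BL/6J mice, 3 in each of 3 groups. The first group was fed CDAA-HFD and received the compound 326E at 30 mg/kg for 6 weeks, the second was fed CDAA-HFD and received vehicle, and the third was fed normal chow and received vehicle. CDAA-HFD is a choline-deficient, amino-acid-defined, high-fat diet that is used to induce steatohepatitis with fibrosis. The sample titles begin with MCD in every group, chow included, and the diets given here are those of the protocol. The ages of the mice are not given in the labels. The study asked how 326E acts on this liver disease, and the comparisons below ask how the factors changed on the diet, how they differed with 326E on the diet, and how they differed between 326E-treated and chow livers.

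The FOXA proteins bind DNA through a forkhead domain and are pioneer factors, able to reach their sites in closed chromatin and keep liver enhancers accessible to other factors. The C/EBP proteins bind as leucine-zipper dimers: C/EBPα drives metabolic genes of the differentiated hepatocyte and restrains its division, while C/EBPβ is induced by interleukin-6 and drives acute-phase genes. The ONECUT proteins, of which ONECUT1 is also called HNF6, act in hepatocyte and bile duct development, and in mouse liver HNF6 activates the genes of Foxa2 and Hnf4a. PROX1 is a homeodomain protein needed for hepatoblast migration, and in the adult liver it is made by hepatocytes and by lymphatic endothelium.

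The promoter windows of 3 members are shown because Foxa2 and Cebpa were the members that passed a test below and Foxa1 is the closest relative of Foxa2. The windows are from RefSeq (GRCm38.p6, the build also called mm10), run from 250 bases before to 50 bases after an annotated start and are written 5′ to 3′ on the strand of the gene. Capitals mark the match to a motif searched on both strands.
Foxa2, chr2:148046920-148047219, minus strand: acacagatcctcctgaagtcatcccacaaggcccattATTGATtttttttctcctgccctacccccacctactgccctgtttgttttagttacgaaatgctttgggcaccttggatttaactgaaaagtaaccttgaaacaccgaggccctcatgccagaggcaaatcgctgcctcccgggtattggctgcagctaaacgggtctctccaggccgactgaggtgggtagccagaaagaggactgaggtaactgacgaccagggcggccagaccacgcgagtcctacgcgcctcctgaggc
Cebpa, chr7:35119043-35119342, plus strand: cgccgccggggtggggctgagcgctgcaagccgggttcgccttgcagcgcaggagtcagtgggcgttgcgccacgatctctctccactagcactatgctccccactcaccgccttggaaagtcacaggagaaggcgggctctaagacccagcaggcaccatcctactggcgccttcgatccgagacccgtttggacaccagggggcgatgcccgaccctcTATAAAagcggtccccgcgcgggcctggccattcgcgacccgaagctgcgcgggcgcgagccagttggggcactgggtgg
Foxa1, chr12:57546062-57546361, minus strand: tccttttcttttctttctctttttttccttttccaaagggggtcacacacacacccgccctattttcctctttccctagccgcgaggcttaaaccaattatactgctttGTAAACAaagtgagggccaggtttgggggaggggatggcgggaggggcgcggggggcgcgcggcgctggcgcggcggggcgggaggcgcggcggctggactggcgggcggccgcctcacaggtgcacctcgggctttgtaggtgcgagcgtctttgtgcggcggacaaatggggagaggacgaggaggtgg
In the Foxa2 window the capitals are ATTGAT, the core that ONECUT proteins bind, and its first base lies at -213, counted in bases from the start. In the Cebpa window they are TATAAA, the TATA box, at -30. In the Foxa1 window they are TGTTTAC, the forkhead core, read on the opposite strand, at -141.

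Among all 32851 promoter windows of the same length, 7.54% held ATTGAT, 13.6% TATAAA, 3.65% TGTTTAC and 6.23% TTGCAA, part of the C/EBP site. RefSeq gave 10 windows for 7 of the 8 members. The 3 windows of Foxa2 differed in their matches, since another held a TATA box on the opposite strand and the third held none of the 4 motifs. The C/EBP core was found in 1 of the 10 windows, at a Prox1 start. The Cebpa window held 29 CpG dinucleotides, the Foxa1 window 26 and the Foxa2 window shown 12, beside a median of 7 over all windows. A match describes the letters only, and binding was not measured.

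On genome build mm10 the table places Foxa1 (ENSMUSG00000035451) at chr12:57540628-57546916, Foxa2 (ENSMUSG00000037025) at chr2:148042877-148046969 and Foxa3 (ENSMUSG00000040891) at chr7:19013284-19023538, all on the minus strand. Cebpa (ENSMUSG00000034957) lies at chr7:35119293-35121928 and Cebpb (ENSMUSG00000056501) at chr2:167688915-167690418, both on the plus strand and both short genes, with 2636 and 1504 exonic bases. Onecut1 (ENSMUSG00000043013) lies at chr9:74861921-74891781 on the plus strand, Onecut2 (ENSMUSG00000045991) on chromosome 18, and Prox1 (ENSMUSG00000010175) at chr1:190118035-190170714 on the minus strand. Exons of Cebpa, Cebpb and Prox1 overlap exons of a gene on the opposite strand, Gm45091, Tmem189 and Prox1os. The strand setting of the counting is not given in the sources used here, so reads of such pairs cannot be told apart. The partners were low beside the first 2 of these members, at 0.293 to 4.0 FPKM for Gm45091 and 3.04 to 6.22 FPKM for Tmem189. Prox1os, at 2.21 to 9.60 FPKM, came nearer to the level of Prox1. Exons of Onecut1 also overlap exons of Gm20649 on the same strand, which no strand setting separates, and Gm20649 was at 0 FPKM in every library.

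The libraries held 13275888 to 17058316 reads assigned to genes, and the FPKM values had been scaled between libraries before deposit. The library sizes behind them were 0.828 to 0.860 of the assigned reads in chow libraries and 1.01 to 1.19 in libraries on the diet. Chow values are therefore raised beside diet values, relative to scaling by total assigned reads. The tissue label was checked against 18 hepatocyte markers, which were all tested and summed to 36580 to 48730 FPKM in 326E livers, 39837 to 57554 FPKM in vehicle livers on the diet and 62455 to 64373 FPKM in chow livers. These sums are on the deposited scale and were not recomputed on total assigned reads. In bulk liver, fewer hepatocytes and less RNA per hepatocyte cannot be told apart. The labels do not say that each library came from a separate animal, so the p-values measure the spread between these samples. Chow replicate 2 stood apart in acute-phase genes, with Saa1 at 426 FPKM against 10.4 and 33.4 FPKM in the other chow libraries, and with Orm2 at 672 against 23.6 and 19 FPKM. Values without it are given beside many of the results that it moves.

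Cebpa was the most abundant of the 8 per base of gene, and among the 783 tested genes to which the file assigns a transcription factor family it ranked 1, with a mean of 186 FPKM over the 9 libraries. Cebpb followed at 93.2 FPKM and rank 5, Foxa3 at 20.1 FPKM and rank 41, Prox1 at 15.7 FPKM and rank 58, and Onecut2 at 9.85 FPKM and rank 105. Foxa2 at 7.76 FPKM, Foxa1 at 7.60 FPKM and Onecut1 at 6.17 FPKM closed the order, at ranks 139, 141 and 181. Only some of these steps exceeded the spread between libraries: Cebpa lay above all other members but Cebpb in every library, whereas the ranges of Foxa1, Foxa2, Onecut1 and Onecut2 overlapped in chow livers. Foxa3 was the highest of the 44 forkhead genes in the file, and Foxa2 and Foxa1 were the 4th and 5th. Depth behind the values differed with level and length, from 78 to 698 reads per library for Onecut1 and 112 to 412 reads for Foxa2 to 5628 to 8765 reads for Cebpa.

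**Figure D1:**
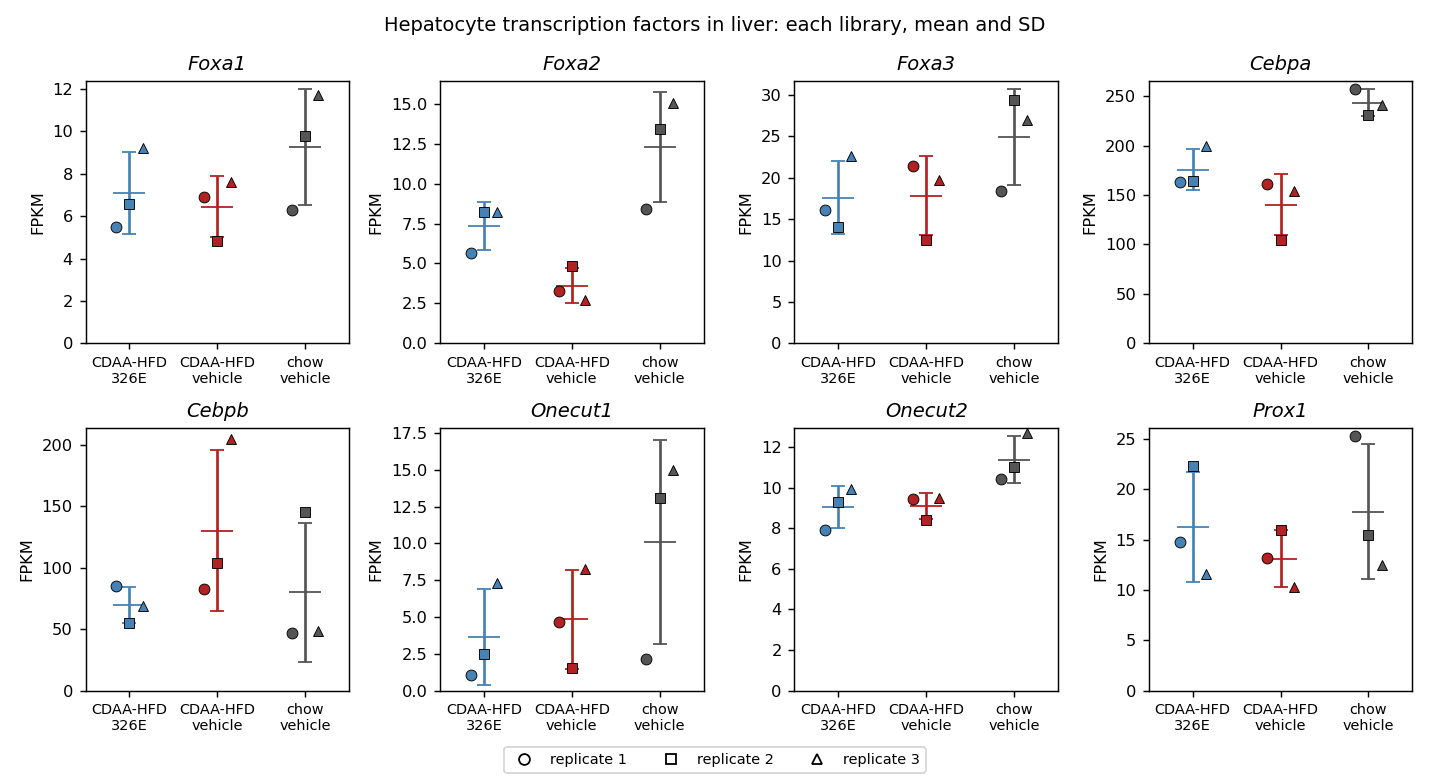
Expression of each member in FPKM in every library, with 326E livers at the left, vehicle livers on CDAA-HFD in the middle and chow livers at the right of each panel; horizontal lines are group means, bars are SD (n = 3), and the marker shape gives the replicate number. Foxa2 and Cebpa show no overlap between any pair of groups, while the Cebpb, Onecut1 and Prox1 groups overlap in each pair.

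On the diet, Foxa2 and Cebpa fell and no member passed the test as higher. Foxa2 was at 0.294 times its chow mean and Cebpa at 0.577 times. In limma, 2 of the 8 members were lower and 0 were higher at an adjusted p under 0.05 in vehicle livers on the diet against chow livers, while 6 did not pass. Over all genes tested, 41.6% were called, with 20.8% lower and 20.8% higher, so the members' count was near the background. The groups did not overlap for 3 members, all lower in vehicle livers, against 51.9% of all genes, or 27% for lower values alone. The median difference of the 8 was -0.46 in log2(FPKM + 1) beside -0.04 for all genes tested.

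Foxa2 read 3.25, 4.86 and 2.74 FPKM in the 3 vehicle livers on the diet, against 8.43, 13.4 and 15.1 FPKM in the 3 chow livers. Every vehicle value lay below every chow value. The means were 3.62 ± 1.1 FPKM in vehicle livers and 12.3 ± 3.45 FPKM in chow livers (SD, n = 3 each). The difference in log2(FPKM + 1) was -1.52 with a standard error of 0.24, and its adjusted p in limma was 0.00105. Foxa2 kept its call in each alternative setting and with each library left out, with differences between -1.75 and -0.99.

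Foxa1 and Foxa3, the other liver forkhead pioneers, did not pass. Foxa1 averaged 6.45 ± 1.46 FPKM in vehicle livers on the diet and 9.26 ± 2.75 FPKM in chow livers, a difference of -0.44 in log2(FPKM + 1) with a 95% interval of -1.0 to 0.11 and an adjusted limma p of 0.177. Foxa3 averaged 17.8 ± 4.74 FPKM in vehicle livers and 24.9 ± 5.82 FPKM in chow livers, a difference of -0.47 with an interval of -1.03 to 0.10 and an adjusted limma p of 0.165. For both genes chow replicate 1, at 6.29 FPKM of Foxa1 and 18.3 FPKM of Foxa3, lay inside the range of the vehicle livers. Scaled to total assigned reads, the differences were -0.094 for Foxa1 and -0.089 for Foxa3. With 1 library left out they ran from -0.67 to -0.27 for Foxa1 and from -0.67 to -0.24 for Foxa3.

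Foxa2 supplied 10.3%, 22.0% and 9.13% of the summed FPKM of the 3 Foxa genes in vehicle livers on the diet, against 25.5%, 25.5% and 28.0% in chow livers. All vehicle shares lay below all chow shares, and vehicle replicate 2 was nearest to chow. The ratio of Foxa2 to Foxa1 was 0.470, 1.01 and 0.360 in vehicle livers and 1.34, 1.37 and 1.29 in chow livers. These shares carry no test of their own.

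Cebpa read 162, 105 and 154 FPKM in vehicle livers on the diet, against 258, 231 and 241 FPKM in chow livers. The groups were well apart, and vehicle replicate 2 was the lowest of all libraries. The means were 140 ± 30.8 FPKM in vehicle livers and 243 ± 13.3 FPKM in chow livers, and the difference of -0.81 in log2(FPKM + 1), with a standard error of 0.17, had an adjusted limma p of 0.00495. The Cebpa call was lost under quantile normalization, at -0.32 with an adjusted p of 0.0993. Scaled to total assigned reads, the difference was -0.42 with an adjusted p of 0.0356, while the median of all genes moved to 0.25.

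Cebpb read 82.5, 104 and 204 FPKM in vehicle livers on the diet, against 46.7, 145 and 48.1 FPKM in chow livers. Vehicle replicate 3 was the highest of the 9 libraries, and chow replicate 2 lay far above the other chow livers and inside the vehicle range. The means were 130 ± 65.1 FPKM in vehicle livers and 80.0 ± 56.5 FPKM in chow livers, and the difference of 0.80 in log2(FPKM + 1) did not pass, with an adjusted limma p of 0.199. Without chow replicate 2, the library with the high acute-phase genes, the difference was 1.33 with an adjusted p of 0.0192. Without vehicle replicate 3 it was 0.42 and without chow replicate 1 it was 0.52. Macrophage and other myeloid cells also make Cebpb, and 14 of 14 myeloid markers were tested, with summed levels of 930 to 1387 FPKM in vehicle livers and 177 to 214 FPKM in chow livers. Their part in the Cebpb values was not tested.

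Among the ONECUT genes, Onecut2 read 9.46, 8.38 and 9.49 FPKM in vehicle livers on the diet and 10.4, 11 and 12.7 FPKM in chow livers. The groups did not overlap, but the step was small beside that of Foxa2, and the difference of -0.29 in log2(FPKM + 1), with a standard error of 0.11, missed the threshold at an adjusted limma p of 0.0609. Without 326E replicate 1, which enters the shared estimate of the spread, the adjusted p was 0.0473, and scaled to total assigned reads the difference changed sign, to 0.072. Onecut1 read 4.67, 1.54 and 8.28 FPKM in vehicle livers and 2.13, 13.1 and 15 FPKM in chow livers. Both groups spread several-fold and overlapped, and the difference of -0.80 had a 95% interval of -2.46 to 0.86 and an adjusted limma p of 0.419. It was -1.55 without chow replicate 1 and -0.29 without vehicle replicate 2.

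Prox1 read 13.1, 15.9 and 10.3 FPKM in vehicle livers on the diet and 25.3, 15.4 and 12.5 FPKM in chow livers. Chow replicate 1 was the highest and the other chow libraries lay within the vehicle range. The difference of -0.37 in log2(FPKM + 1) had a 95% interval of -1.03 to 0.28 and an adjusted limma p of 0.337. It was -0.098 without chow replicate 1, and scaled to total assigned reads it was 0.0018. Of 8 lymphatic endothelial markers, 7 were tested, and their list summed to 26.1 to 31.5 FPKM in vehicle livers and 12.8 to 14.0 FPKM in chow livers. Of those tested 3 were higher (42.9%, beside 20.8% of all genes) and none lower, or 2 higher without chow replicate 2. The 3 were Lyve1, Reln and Sema3d, while Flt4, Ccl21a, Mmrn1 and Pdpn did not pass. Lyve1, at 12.8 to 14.7 FPKM, and Reln, at 7.11 to 8.51 FPKM, made most of the sum in vehicle livers. Reln also stands on a list of stellate cell markers, so the sum does not describe lymphatic endothelium alone. The part of lymphatic endothelium in the Prox1 values was not tested.

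**Figure D2:**
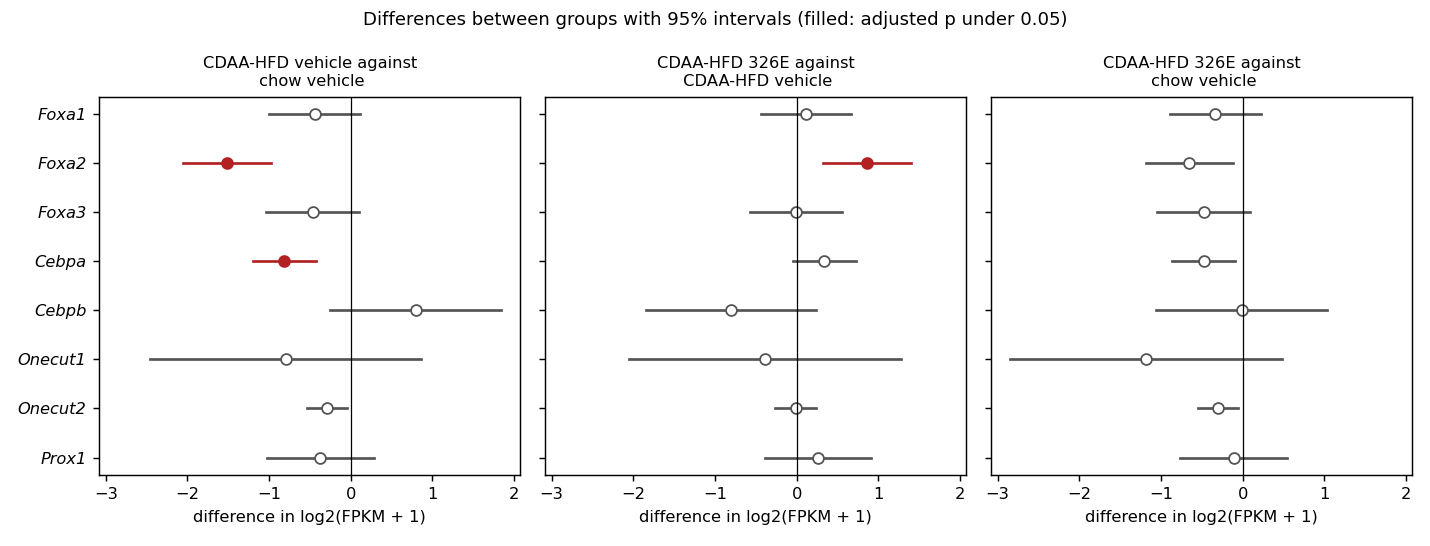
Differences between groups for each member in log2(FPKM + 1), with 95% intervals from limma; the first panel sets vehicle livers on CDAA-HFD against chow livers, the second 326E against vehicle on CDAA-HFD, and the third 326E livers on CDAA-HFD against chow livers. Filled points passed an adjusted p of 0.05, which held for Foxa2 and Cebpa on the diet and for Foxa2 with 326E; the Onecut1 intervals are the widest.

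With 326E on the diet, Foxa2 rose and no other member passed the test. Its mean in 326E livers was 2.04 times that of vehicle livers. In limma, 1 of the 8 members was higher and 0 were lower, while 7 did not pass. Over all genes tested, 11.5% were called, 4.96% higher and 6.5% lower. The groups did not overlap for 2 members, Foxa2 and Cebpa, both higher in 326E livers, against 33% of all genes, or 14.8% for higher values alone, and the median difference of the 8 was 0.05 beside -0.02 for all genes tested. This comparison shares its vehicle libraries with the diet comparison.

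Foxa2 read 5.64, 8.24 and 8.21 FPKM in 326E livers, against 3.25, 4.86 and 2.74 FPKM in vehicle livers on the diet. Each 326E liver was above each vehicle liver, with 326E replicate 1 and vehicle replicate 2 the nearest to each other. The means were 7.36 ± 1.5 FPKM in 326E livers and 3.62 ± 1.1 FPKM in vehicle livers. The difference of 0.87 in log2(FPKM + 1), with a standard error of 0.24, passed narrowly at an adjusted limma p of 0.0484. It stayed positive in 18 of 18 alternative settings, between 0.52 and 1.05, but the call was lost in 10 of them. The call was lost without 326E replicate 1 (adjusted p = 0.0523), 2 (0.144) or 3 (0.139), without vehicle replicate 1 (0.116) or 3 (0.137) and without chow replicate 2 (0.0589) or 3 (0.0502). It was also lost with a pseudocount of 5, without the filter and on total assigned reads, while voom on the recovered reads gave 1.02 with an adjusted p of 0.0401. Foxa2 supplied 20.7%, 28.6% and 20.5% of the summed Foxa FPKM in 326E livers, against 10.3%, 22.0% and 9.13% in vehicle livers, so vehicle replicate 2 lay within the range of the 326E livers.

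Cholangiocytes also make Foxa1, Foxa2 and Onecut1. Of 14 cholangiocyte markers, 11 were tested, and the list summed to 127 to 179 FPKM in 326E livers, 119 to 347 FPKM in vehicle livers on the diet and 42.0 to 66.6 FPKM in chow livers. On the diet 5 of these markers were higher (45.5% of those tested, beside 20.8% of all genes) and none lower, or 2 higher without chow replicate 2. With 326E 1 marker was higher, or 9.09% of those tested beside 4.96% of all genes. It was the keratin gene Krt23, at 33.3 ± 6.17 FPKM in 326E livers and 2.68 ± 0.924 FPKM in vehicle livers. Most of the sum in vehicle livers was Spp1. Without it the list summed to 57.3, 52.7 and 44.6 FPKM in 326E livers, against 16.0, 40.7 and 49.4 FPKM in vehicle livers. Of these sums, Krt23 alone made 27.8, 40.0 and 32.2 FPKM in 326E livers and 2.27, 3.74 and 2.04 FPKM in vehicle livers. The median difference of the 11 tested markers with 326E was -0.48, so the sums do not describe the list as a whole. The part of these cells in the Foxa2 difference was not tested.

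Cebpa read 163, 164 and 199 FPKM in 326E livers, against 162, 105 and 154 FPKM in vehicle livers on the diet. The groups did not overlap, but vehicle replicate 1 lay just below the lowest 326E liver. The difference of 0.34 in log2(FPKM + 1), with a standard error of 0.17, did not pass, with an adjusted limma p of 0.235, and without vehicle replicate 2 it was 0.14. Cebpb read 84.6, 54.8 and 69.0 FPKM in 326E livers, against 82.5, 104 and 204 FPKM in vehicle livers. The highest 326E liver exceeded the lowest vehicle liver, and the difference of -0.81, with a standard error of 0.46, had an adjusted limma p of 0.290. Without vehicle replicate 3 it was -0.43. The 14 myeloid markers summed to 511 to 893 FPKM in 326E livers, against 930 to 1387 FPKM in vehicle livers. Most of these sums was Lyz2, at 677, 350 and 360 FPKM in 326E livers. With 326E 7 of the 14 were lower (50%, beside 6.5% of all genes) and 1, Timd4, was higher. Without chow replicate 2, 6 were lower and 1 higher. The part of myeloid cells in the Cebpb difference was not tested.

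The balance of the C/EBP pair followed from these levels. The ratio of Cebpb to Cebpa FPKM was 0.520, 0.334 and 0.346 in 326E livers, 0.511, 0.986 and 1.32 in vehicle livers on the diet, and 0.181, 0.628 and 0.199 in chow livers. The mean ratio was 0.400 in 326E livers, 0.940 in vehicle livers and 0.336 in chow livers, or 0.190 in chow livers without replicate 2, and vehicle replicate 3 held more Cebpb than Cebpa. Vehicle replicate 1 lay inside the range of the 326E livers, and chow replicate 2 lay above all 326E livers. Cebpd, the third C/EBP gene of the acute-phase response, read 4.56, 3.41 and 4.37 FPKM in 326E livers, 9.76, 11.7 and 16.8 FPKM in vehicle livers and 1.47, 6.96 and 1.87 FPKM in chow livers. Like Cebpb, Cebpd was highest in vehicle replicate 3 and, among chow livers, in replicate 2. The Cebpd difference in log2(FPKM + 1) was 1.81 on the diet, with an adjusted limma p of 0.00575. With 326E it was -1.40, with an adjusted limma p of 0.0519, or 0.00482 without chow replicate 2.

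**Figure D3:**
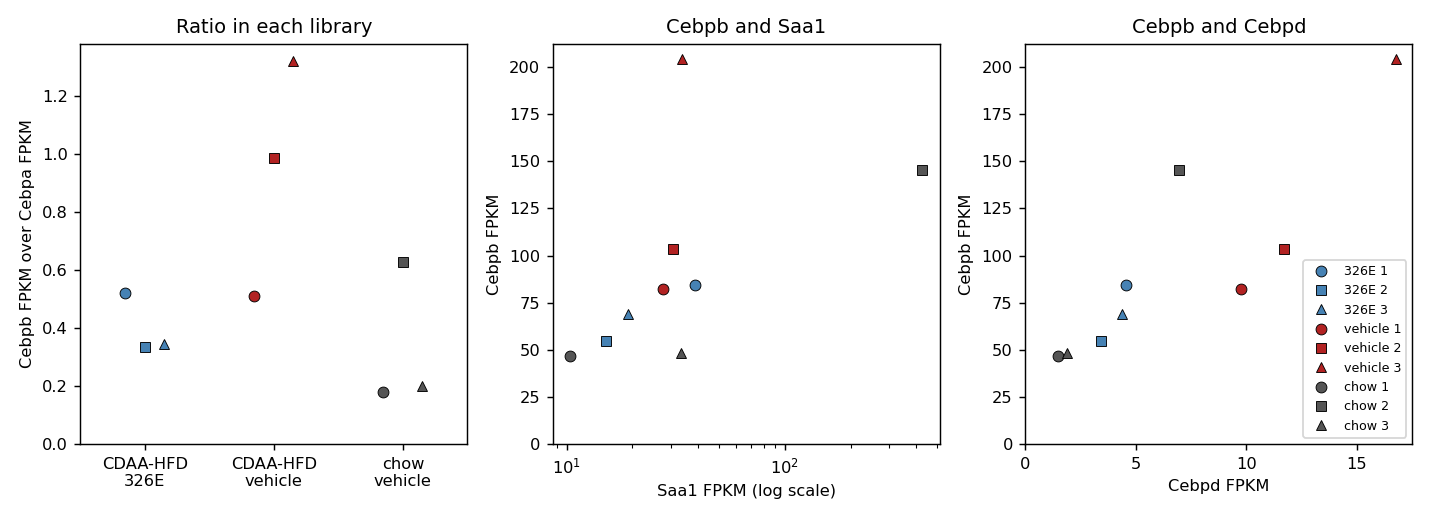
The left panel plots the ratio of Cebpb to Cebpa FPKM by group, the middle panel Cebpb FPKM against Saa1 FPKM on a log axis, and the right panel Cebpb FPKM against Cebpd FPKM; each point is 1 library, colour gives the group and shape the replicate. Chow replicate 2 is set apart by Saa1 at 426 FPKM, and vehicle replicate 3 has the highest Cebpb and Cebpd.

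Foxa1, Foxa3, Onecut1, Onecut2 and Prox1 did not pass with 326E. Onecut2 had the narrowest interval, with a mean of 9.05 ± 1.02 FPKM in 326E livers and 9.11 ± 0.630 FPKM in vehicle livers on the diet and a difference of -0.01 in log2(FPKM + 1), from -0.26 to 0.24. Foxa3 averaged 17.6 ± 4.45 FPKM in 326E livers and 17.8 ± 4.74 FPKM in vehicle livers, with an interval of -0.58 to 0.56. For Foxa1 the interval ran from -0.44 to 0.66, for Prox1, whose difference of 0.26 was 0.019 without 326E replicate 2, from -0.39 to 0.92, and for Onecut1 from -2.05 to 1.28. Changes of these sizes in Onecut1 were thus not detectable at the spread of its 3 libraries per group, which read 1.07, 2.49 and 7.31 FPKM in 326E livers.

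Between 326E livers on the diet and chow livers, no member passed the limma test, while 26.8% of all genes tested did, 14.4% higher and 12.5% lower. The 8 member means were all lower in 326E livers than in chow livers, but the difference of Cebpb was 0.52 without chow replicate 2, that of Prox1 was 0.16 without chow replicate 1, and those of Cebpb, Onecut2 and Prox1 were above 0 on total assigned reads. At an unadjusted p under 0.05 there were 3 members, Foxa2, Cebpa and Onecut2, near the 39.1% of all genes under that p, and voom called 0 at the adjusted threshold. The same 3 members had groups that did not overlap, all lower in 326E livers, against 45.1% of all genes, of which 22.6% were lower and 22.4% higher.

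Foxa2 averaged 7.36 ± 1.5 FPKM in 326E livers and 12.3 ± 3.45 FPKM in chow livers, and every 326E value was below every chow value. The difference of -0.65 in log2(FPKM + 1) had a 95% interval of -1.19 to -0.11 and an adjusted limma p of 0.0740. It passed without chow replicate 1, at -0.88 with an adjusted p of 0.0259, and with the replicate number as a block, at an adjusted p of 0.0441, while on total assigned reads it was -0.32 with an adjusted p of 0.337. Cebpa averaged 175 ± 20.7 FPKM in 326E livers and 243 ± 13.3 FPKM in chow livers, a difference of -0.48 with an adjusted limma p of 0.0711. It passed without vehicle replicate 2, at an adjusted p of 0.0215, and in a fit of only the 6 libraries compared, at 0.0309, while it was -0.013 with an adjusted p of 0.960 under quantile normalization and -0.11 on total assigned reads. Onecut2 averaged 9.05 ± 1.02 FPKM in 326E livers and 11.4 ± 1.17 FPKM in chow livers, a difference of -0.30 with an adjusted limma p of 0.0726, which changed sign to 0.031 on total assigned reads. For Onecut1 the difference of -1.18 was larger but its 95% interval ran from -2.85 to 0.48, and it was -1.94 without chow replicate 1 and -0.72 without 326E replicate 1.

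The members differed widely in how much replicate libraries scattered. The SD within groups of log2(FPKM + 1) placed Onecut1 at percentile 99.7 of all genes tested, Cebpb at 97.9 and Prox1 at 92.5. Foxa3, Foxa1 and Foxa2 lay at percentiles 89.2, 88.7 and 88.0, Cebpa at 70.4 and Onecut2 at 30.2. The 2 ONECUT genes were therefore near opposite ends of the scale. The highest Onecut1 library was 6.81 times the lowest in 326E livers, 5.37 times in vehicle livers on the diet and 7.03 times in chow livers.

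The order of the libraries within groups was shared by some members. Onecut1, Foxa1 and Onecut2 were each lowest in 326E replicate 1, vehicle replicate 2 and chow replicate 1, and each highest in replicate 3 of all 3 groups. Prox1 ran the other way: it was lowest in replicate 3 of all 3 groups, and in 2 of the 3 it was highest in the library where Onecut1 was lowest. In vehicle replicate 2, 5 members were at their lowest of the group, Foxa1, Foxa3, Cebpa, Onecut1 and Onecut2, while Foxa2 and Prox1 were at their highest. Chow replicate 1 held the lowest value of 6 members and the highest of Cebpa and Prox1. These orders rest on 3 libraries a group and are a description.

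**Figure D4:**
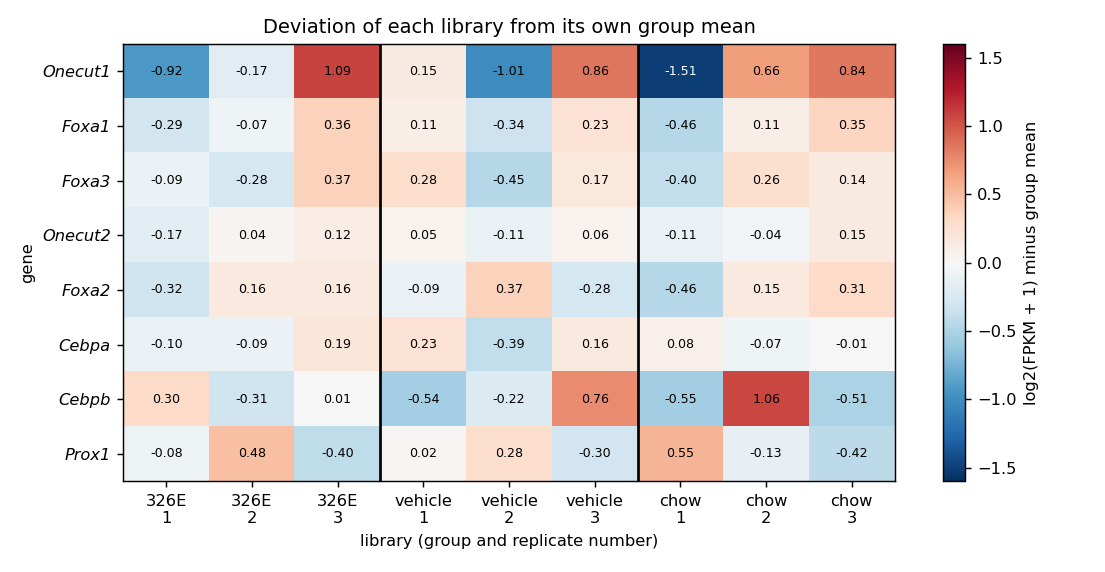
Deviation of each library from its own group mean in log2(FPKM + 1) for the 8 members, with 326E livers at the left, vehicle livers on CDAA-HFD in the middle and chow livers at the right; red is above and blue below the group mean. Onecut1 spans -1.51 in chow replicate 1 to 1.09 in 326E replicate 3. Within each group, Foxa1 and Onecut2 are lowest and highest in the same libraries as Onecut1, and Prox1 is lowest in replicate 3.

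Genes whose levels were most like each member were sought over the 9 libraries among 12095 tested genes with a symbol, by Pearson r of log2(FPKM + 1). The libraries share 3 group means, so r includes the differences between groups. Cebpa was nearest to Pccb (r = 0.990), a subunit of mitochondrial propionyl-CoA carboxylase, and to Atp5b (0.983), a subunit of ATP synthase. Onecut2 was nearest to Derl1 (0.984) and Edem1 (0.970), both of endoplasmic reticulum-associated degradation. Foxa2 was nearest to Zfp141 (0.983) and Mnd1 (0.975), and Foxa3 to Hhex (0.953), a homeobox factor of liver development, and Pglyrp2 (0.944). Onecut1 was nearest to Prkag2 (0.955), a regulatory subunit of AMP-activated kinase, and Klf9 (0.949), a glucocorticoid-induced factor, and Foxa1 to Gbp11 (0.963). For Cebpb the nearest were Ighv8-12 (0.947), an immunoglobulin segment near the floor at 0 to 1.46 FPKM, and Man2b2 (0.918). For Prox1 they were Zfp426 (0.932) and Zfp820 (0.918), the latter at only 0.328 to 1.33 FPKM.

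Among 34 other hepatocyte transcription factors, 12 were lower, 3 higher and 19 did not pass in vehicle livers on the diet against chow livers, with a median difference of -0.34. The called share of 44.1% was near the 41.6% of all genes tested. By direction, 35.3% were lower and 8.82% higher, beside 20.8% lower and 20.8% higher of all genes, whose median was -0.04. Without chow replicate 2, 11 were lower and 4 higher. Hnf4a, the nuclear receptor that shares many enhancers with FOXA and C/EBP proteins, read 86.6, 81.7 and 84.5 FPKM in vehicle livers and 146, 181 and 123 FPKM in chow livers. The groups lay well apart, with a difference of -0.81 and an adjusted limma p of 0.00211. Nr0b2, which encodes the bile acid-induced repressor SHP, was lower at 7.24 ± 2.66 FPKM in vehicle livers and 20.5 ± 7.79 FPKM in chow livers. Sox9, a factor of bile duct cells, was higher at 4.31 ± 1.80 FPKM in vehicle livers and 1.12 ± 0.373 FPKM in chow livers, and the others that rose were Foxo3 and Gata6.

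With 326E on the diet, 1 of these 34 factors was higher, 2 were lower and 31 did not pass, a called share of 8.82% beside 11.5% of all genes. The one that rose was Nr2f2, which encodes the nuclear receptor COUP-TFII and read 4.68, 5.15 and 4.82 FPKM in 326E livers, against 2.01, 2.93 and 2.5 FPKM in vehicle livers. All 326E livers were above all vehicle livers, with a difference of 0.76 in log2(FPKM + 1) and an adjusted limma p of 0.00590, and the chow livers read 4.43 to 5.49 FPKM. Foxo3, a forkhead factor restrained by insulin signalling, fell to 7.29 ± 0.213 FPKM in 326E livers, against 16.3 ± 3.39 FPKM in vehicle livers. Nfil3, a leucine-zipper repressor of the clock, averaged 3.23 ± 0.283 FPKM in 326E livers and 11.7 ± 5.80 FPKM in vehicle livers and also fell. Hnf4a read 103, 86.8 and 90.8 FPKM in 326E livers, each above every vehicle liver, but its difference of 0.14 had an adjusted limma p of 0.555. Between 326E and chow livers 8 of the 34 were lower, 1 was higher and 25 did not pass. These were 23.5% lower and 2.94% higher, beside 12.5% and 14.4% of all genes.

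Of 10 further C/EBP, ATF and AP-1 genes, 6 were higher, 1 lower and 3 did not pass in vehicle livers on the diet against chow livers, with a median of 0.71. The called share was 70% beside 41.6% of all genes, on few genes, and 5 were higher without chow replicate 2. The 6 were Atf3, Jun, Junb, Cebpd, Ddit3 and Batf. Atf3, a stress-induced factor, read 136, 30.1 and 210 FPKM in vehicle livers and 0.683, 0.394 and 0.169 FPKM in chow livers. Every vehicle liver was far above chow, and vehicle replicate 2 was the lowest of its group. Jun averaged 41.1 ± 16.4 FPKM in vehicle livers and 5.11 ± 1.74 FPKM in chow livers. With 326E 2 of the 10, Atf3 and Jun, were lower (20%, beside 6.5% of all genes) and 8 did not pass. Atf3 averaged 9.72 ± 2.97 FPKM in 326E livers and 125 ± 90.5 FPKM in vehicle livers. Without chow replicate 2 the call of Jun was lost, at an adjusted limma p of 0.0505. Cebpd then gained a call, at 0.00482 against 0.0519 with all libraries.

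Genes known to be regulated by FOXA proteins gave 4 lower, 1 higher and 9 that did not pass among 14 tested of 15 on the diet, with a median of -0.37 and a called share of 35.7% beside 41.6% of all genes. Igfbp1, an insulin-repressed gene with FOXA sites, was the one that rose, at 640 ± 127 FPKM in vehicle livers and 55.6 ± 41.2 FPKM in chow livers, and with 326E it fell to 101 ± 12.2 FPKM against 640 ± 127 FPKM in vehicle livers. Serpina1e, which has near-identical paralogs and is uncertain for that reason, fell to 500 ± 205 FPKM in vehicle livers, against 6453 ± 467 FPKM in chow livers. Igfbp1 was the only member of this list that passed with 326E, or 7.14% of those tested beside 11.5% of all genes. Without chow replicate 2, 5 of the list were lower and 1 higher on the diet, with a median of -0.46. The diet difference of Igfbp1, which read 103 FPKM in that library, was then 4.27, against 3.71 with all libraries.

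Of 18 genes regulated by C/EBP proteins, 4 were lower, 4 higher and 10 did not pass on the diet, with a median of -0.06 and a called share of 44.4%, near the 41.6% of all genes. Without chow replicate 2, 5 were lower and 6 higher, with a median of 0.45. Lcn2, an acute-phase iron-binding protein, averaged 138 ± 39.0 FPKM in vehicle livers and 31.3 ± 50.2 FPKM in chow livers, of which chow replicate 2 read 89.3 FPKM and the others 1.71 and 2.95 FPKM. Its difference was 3.77 in log2(FPKM + 1) with that library and 5.37 without it. Cxcl1, a neutrophil chemokine, was also higher, at 45.8 ± 40.3 FPKM in vehicle livers and 3.06 ± 1.82 FPKM in chow livers. With 326E 1 of the 18 was lower (5.56%, beside 6.5% of all genes). It was Crp, at 75.2 ± 13.9 FPKM in 326E livers and 108 ± 9.57 FPKM in vehicle livers. Its adjusted limma p of 0.0488 was 0.0511 without chow replicate 2. Without that library Lcn2 and Orm2 were lower with 326E, at adjusted limma p of 0.00646 and 0.0243.

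Of 9 genes regulated by ONECUT1 or PROX1, a list that holds Foxa2 itself, 6 were lower, 0 higher and 3 did not pass on the diet, with a median of -0.81 and a called share of 66.7%, on few genes, beside 41.6% of all genes. Cyp2c70, the enzyme that makes muricholic acids in mice, averaged 134 ± 28.5 FPKM in vehicle livers and 466 ± 49.0 FPKM in chow livers. With 326E 1 of the 9 was higher, Foxa2, and 8 did not pass, a called share of 11.1% beside 11.5% of all genes. Between 326E and chow livers 5 of the 9 were lower (55.6%, beside 12.5% of all genes) and 4 did not pass. Without chow replicate 2, 7 were lower. Of the 18 hepatocyte markers 8 were lower (44.4%, beside 20.8% of all genes) and 0 higher on the diet. Without chow replicate 2, 9 were lower and 1 higher. With 326E 18 did not pass, while 11.5% of all genes were called. Of 10 fetal liver genes 6 were tested, and 1 was higher on the diet (16.7%, beside 20.8% of all genes). It was H19, an imprinted fetal RNA, at 1.51 ± 1.22 FPKM in vehicle livers and 0.121 ± 0.0328 FPKM in chow livers.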

How the data were processed

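Liver poly(A) RNA libraries were aligned with HISAT2 to mm10 and counted with featureCounts, per the submitters' processing notes; versions, annotation release and strand setting are not given in the sources used here. The deposited values are FPKM computed by the authors. FPKM multiplied by the deposited gene length gave whole reads in 100% of values to within 0.01, and the library sizes behind the deposited FPKM were 0.828 to 1.19 of the totals of those reads, so the values had been scaled between libraries.

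The filter of 0.5 FPKM, met in 3 or more of the 9 libraries, left 13737 genes. The test was that of limma (version 3.58.1, run in R version 4.3.3), applied to log2(FPKM + 1), which understates changes of low genes. All 9 libraries entered 1 fit with a variance trend and 6 residual degrees of freedom. P-values were adjusted by Benjamini-Hochberg over all genes in each comparison, and a gene was called under 0.05. The fit was repeated with a pseudocount of 0.1 or 5, with the filter dropped or set to a mean of 1 FPKM, after quantile normalization, after scaling to total assigned reads, with voom on the recovered reads, with only the 6 libraries compared, with the replicate number as a block, and omitting each library in turn.

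The members and lists were chosen with earlier results of these data known. The lists share genes, so their counts are not independent. For example, Ttr is in the FOXA, the ONECUT1 or PROX1 and the hepatocyte lists, and Cps1 in the FOXA, C/EBP and hepatocyte lists. Beside the 8 members, the genes named were, for each list, the 2 called genes with the largest change in the diet and 326E comparisons, and the 2 genes nearest to each member, of which 1 for Foxa1 is not reported here. Hnf4a, Nr2f2, Cebpd, Saa1, Orm2, further members of short lists of calls and the overlapping genes were named after their values were seen, and the transcription factor families are those of the deposited table. Onecut2 sequence is not reported here.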

Additional observations from a re-analysis of the deposited data

How the results depend on the processing

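Of 432 member differences recomputed under the alternatives, 392 kept their direction and their side of the threshold, 11 lost and 6 gained a call, and 23 changed sign, none of which was called. On the diet 1 member was called under quantile normalization. Scaled to total assigned reads, 5074 genes were higher and 961 lower on the diet and 3953 were higher and 594 lower between 326E and chow livers, against 2859 and 2862 and against 1974 and 1714 on the deposited scale, and the median of all genes moved to 0.25 and to 0.24. Scaled to total reads, Onecut2 was at 0.072 and Prox1 at 0.0018 on the diet, and Cebpb was at 0.35, Onecut2 at 0.031 and Prox1 at 0.23 between 326E and chow livers. Quantile normalization gave 0.018 for Onecut2 with 326E, and 0.27 for Cebpb and 0.010 for Prox1 between 326E and chow livers. With 326E 0 members were called with a pseudocount of 5, without the filter or on total reads, and 1030 genes, 561 of them lower, were called without the filter, where more genes were tested. Between 326E and chow livers 1 member was called in a fit of only the 6 libraries compared. The cause of the other changes was not tested.

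Same-numbered libraries of different groups did not deviate together over all genes tested (r between -0.244 and 0.0236). The labels do not say what the number means, and with 3 libraries per group these correlations cannot exclude a shared factor. With the number as a replicate block, 5163 genes were called on the diet, 1037 with 326E, 574 of them lower, and 3075 between 326E and chow livers, with 1 member called in the last, against 5721, 1574 and 3688 without it.

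With 1 library left out, 2 to 3 members were called on the diet, 0 to 1 with 326E and 0 to 1 between 326E and chow livers. With 326E 659 to 1623 genes were called, 318 to 711 higher and 341 to 912 lower, and between 326E and chow livers 2401 to 3717, 1024 to 1716 of them lower. With 326E Foxa1 ranged from -0.070 to 0.26, Foxa3 from -0.24 to 0.13, Onecut1 from -0.93 to 0.075 and Onecut2 from -0.073 to 0.072. Between 326E and chow livers Cebpb ranged from -0.29 to 0.52 and Prox1 from -0.35 to 0.16. Onecut1 and Foxa2 rested on the fewest reads, 78 to 698 and 112 to 412 per library, which limits the precision of their lowest values.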
